A study of Mus musculus with 13 samples.

Results

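A tagged form of AEBP2 was compared with the endogenous protein by where their chromatin immunoprecipitation (ChIP-seq) peaks lay in wild-type mouse embryonic stem cells (mESCs). The members are the 3 peak lists of that comparison, 1 for FS2-AEBP2 and 2 for endogenous AEBP2 (replicates 1 and 2), chosen by target and genotype from 13 samples of which 5 had a peak list here. On chromosomes 1 to 19, X and Y they held 2884, 2877 and 6779 peaks, which is 12540 of the 35927 peaks in the 5 lists. The remaining 2 lists, for H3K27me3 in the same cells, served only to describe the sites. All 5 lists carried the labels strain 129/1, 129/1 XY ES cell line and genotype wild-type. FS2-AEBP2 was full-length mouse AEBP2 with an N-terminal Flag-StrepII tag, expressed from the plasmid pCAG in cells that still had their own Aebp2 gene, and it was precipitated with an antibody against the tag. Endogenous AEBP2 was precipitated with an antibody raised in the study, under a different ChIP protocol. For the tagged protein the methods name E14 mESCs and not the line of the labels. The tag, the expression from a plasmid, the antibody, the protocol and possibly the line therefore differed together between the lists and cannot be told apart. No reads or counts were in the lists, so the depth was unknown, and nothing in them measures how much tagged protein the cells held. A site without a peak may still have been bound below the calling threshold. FS2-AEBP2 had no replicate, so no test over samples was possible, and each share is given with its 95% Wilson interval, which covers counting error over peaks or promoters only.

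AEBP2 is a zinc finger protein that associates with Polycomb repressive complex 2 (PRC2), together with JARID2, in the form of the complex called PRC2.2. PRC2 methylates lysine 27 of histone H3, and the trimethylated mark, H3K27me3, lies over CpG-rich promoters of developmental regulators that mESCs keep silent. Most genes for ribosomal proteins, splicing and respiration also have CpG-rich promoters, but they are active in these cells and lack the mark.

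Each list was read against the start sites of 22367 protein-coding genes, a promoter being 1 kb on either side of the start. FS2-AEBP2 peaks reached 1460 promoters, or 6.53% of them. AEBP2 replicate 1 reached 2032 (9.08%), replicate 2 reached 4983 (22.3%), and 1888 (8.44%) had a peak in both AEBP2 replicates. Among promoters with AEBP2 in both replicates, most of those with the mark also had an FS2-AEBP2 peak and few of those without it did. Sequences upstream of 1 gene of each kind are shown first, because all kinds were rich in CpG. The 3 were the first genes of their class in score order. They are the 250 bases before the gene start on the mm9 build, read 5′ to 3′ on the strand of the gene, with every CpG in capitals. Hoxd13, a posterior Hox gene that patterns limbs and digits, lies on the plus strand and its stretch is chr2:74506117-74506366. Zbtb37, a zinc finger gene of the minus strand, is represented by chr1:162964981-162965230, and its FS2-AEBP2 peak began further upstream, at position 162965274. The stretch of Rpl22, which encodes a protein of the large ribosomal subunit on the plus strand, is chr4:151699601-151699850.
Hoxd13, peak in all 3 lists: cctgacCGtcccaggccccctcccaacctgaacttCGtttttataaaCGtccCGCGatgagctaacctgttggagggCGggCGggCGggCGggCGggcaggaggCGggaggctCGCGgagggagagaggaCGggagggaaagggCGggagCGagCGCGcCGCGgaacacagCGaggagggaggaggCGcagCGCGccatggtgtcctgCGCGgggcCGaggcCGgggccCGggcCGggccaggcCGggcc
Zbtb37, peak for FS2-AEBP2 only: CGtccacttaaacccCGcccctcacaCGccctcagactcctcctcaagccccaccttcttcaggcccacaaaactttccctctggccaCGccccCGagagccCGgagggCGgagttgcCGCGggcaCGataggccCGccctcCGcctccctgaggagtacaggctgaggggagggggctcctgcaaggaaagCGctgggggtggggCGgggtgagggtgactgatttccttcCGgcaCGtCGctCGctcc
Rpl22, peak in both AEBP2 replicates and none for FS2-AEBP2: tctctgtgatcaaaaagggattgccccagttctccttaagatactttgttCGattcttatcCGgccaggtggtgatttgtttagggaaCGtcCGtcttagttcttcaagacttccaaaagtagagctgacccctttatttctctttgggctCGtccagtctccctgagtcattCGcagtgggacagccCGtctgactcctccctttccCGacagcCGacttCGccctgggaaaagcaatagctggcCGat
The stretch of Hoxd13 held 31 CpGs and was 74.4% G and C, that of Zbtb37 held 18 at 68.0%, and that of Rpl22 held 11 at 50.4%. Whole promoters were compared by class. The median was 117 CpGs among the 1056 promoters of all 3 lists, 105 among the 832 with AEBP2 in both replicates and no FS2-AEBP2, 86 among the 95 with FS2-AEBP2 only, and 61 over all promoters.

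Most promoters recovered by the tagged protein had an endogenous peak in at least 1 replicate, chiefly in the longer list of replicate 2. Of the 1460 FS2-AEBP2 promoters, 1056 had an AEBP2 peak in both replicates, or 72.3% (70.0 to 74.6). A peak in at least 1 replicate was found at 93.5% (92.1 to 94.6), with 73.0% in replicate 1 and 92.8% in replicate 2. The reverse shares were lower. FS2-AEBP2 was found at 52.5% (50.3 to 54.6) of the replicate 1 promoters and at 27.2% (26.0 to 28.4) of those of replicate 2. For scale, replicate 2 held 92.9% (91.7 to 94.0) of the replicate 1 promoters and replicate 1 held 37.9% (36.6 to 39.2) of the replicate 2 promoters. Keeping the 2877 highest-scoring peaks of each list removes the difference in list length. FS2-AEBP2 peaks then met replicate 1 at 59.1% (57.2 to 60.8) and replicate 2 at 60.3% (58.5 to 62.0), while 68.9% (67.2 to 70.6) of the replicate 1 peaks met replicate 2 and 63.3% (61.5 to 65.0) of the replicate 2 peaks met replicate 1. In the other direction 55.4% (53.5 to 57.2) of the replicate 1 peaks and 48.1% (46.2 to 49.9) of the replicate 2 peaks met FS2-AEBP2.

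Where the lists parted was described by the H3K27me3 state of the promoter. Among the 1888 promoters with AEBP2 in both replicates, FS2-AEBP2 had a peak at 1056, or 55.9% (53.7 to 58.2). With H3K27me3 in both of its replicates the share was 77.7% (75.4 to 79.9) of 1316 promoters. With no H3K27me3 peak in either it was 5.21% (3.63 to 7.43) of 537. Of the replicate 1 promoters, replicate 2 held 96.1% (94.97 to 97.0) of those with the mark and 87.3% (84.5 to 89.7) of those without. FS2-AEBP2 held 75.2% (72.8 to 77.4) and 5.20% (3.71 to 7.25) of them. In the other direction the endogenous replicates also parted by the mark. Of the replicate 2 promoters, replicate 1 held 1316 of the 2289 with the mark and 537 of the 2487 without it. Seen from the lists, H3K27me3 in both replicates marked 87.7% of the FS2-AEBP2 promoters, 67.4% of those of replicate 1 and 45.9% of those of replicate 2. Of the 3349 promoters with the mark, FS2-AEBP2 reached about as many as replicate 1, at 38.2% (36.6 to 39.9) against 40.9% (39.2 to 42.6). The longer list of replicate 2 reached 68.3% (66.8 to 69.9). Of these 3349, 1023 were in all 3 lists and 973 in none. Of the 17935 without it, FS2-AEBP2 reached 0.859%, replicate 1 reached 3.43% (3.17 to 3.71) and replicate 2 reached 13.9% (13.4 to 14.4).

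**Figure D1:**
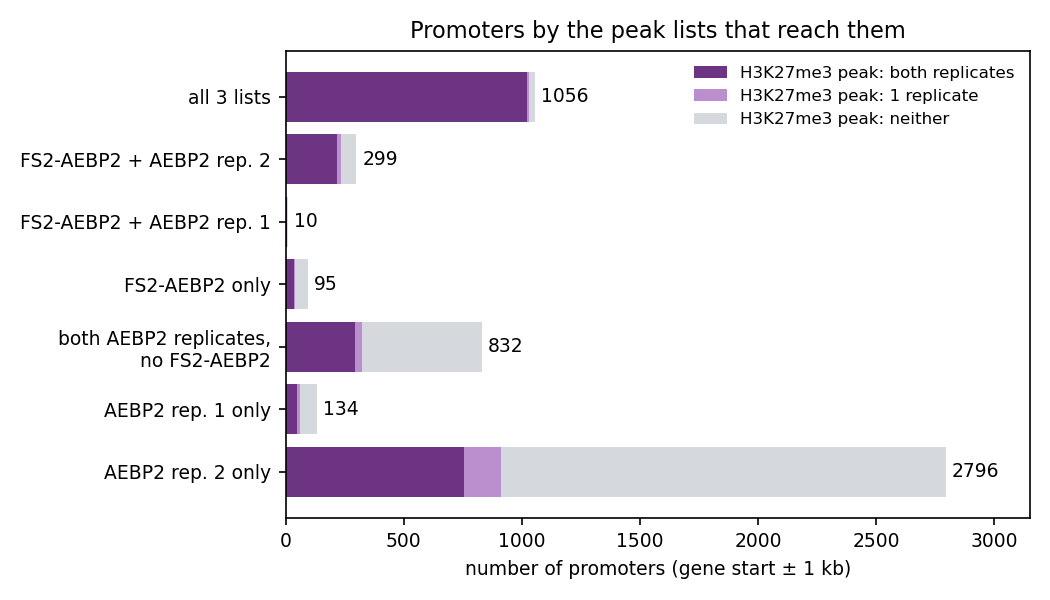
Number of promoters (horizontal axis) in each combination of peak lists, with the bar divided by H3K27me3 peaks in both replicates, in 1 or in neither. Of the 1056 promoters in all 3 lists 1023 had H3K27me3 in both replicates, whereas 509 of the 832 with both AEBP2 replicates and no FS2-AEBP2 had it in neither.

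Recovery by FS2-AEBP2 was also read against the score of the endogenous peak. The replicate 1 promoters were divided into 5 equal bins of the score percentile within the list. Where H3K27me3 lay in both replicates, FS2-AEBP2 was found at 53.9% (48.3 to 59.3) of the 310 promoters in the lowest bin and at 96.6% (94.0 to 98.1) of the 325 in the highest. Where there was no mark, it was found at 3.16% (1.36 to 7.19) of 158 in the lowest, 10.9%, 8.64% and 3.06% in the bins between, and 2.98% (1.28 to 6.78) of 168 in the highest. The other AEBP2 replicate was found more often in the highest bin than in the lowest in both settings, from 72.2% to 99.4% without the mark and from 91.3% to all of the 325 with it. In the bins of replicate 2 the FS2-AEBP2 shares ran from 22.97% to 89.3% with the mark and stayed between 2.96% and 4.27% without it. Replicate 1 was found there at 24.1% in the lowest bin and 93.7% in the highest with the mark, close to FS2-AEBP2. Without the mark it was found at 6.90%, 9.29%, 12.8%, 23.9% and 68.1% from the lowest bin to the highest.

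**Figure D2:**
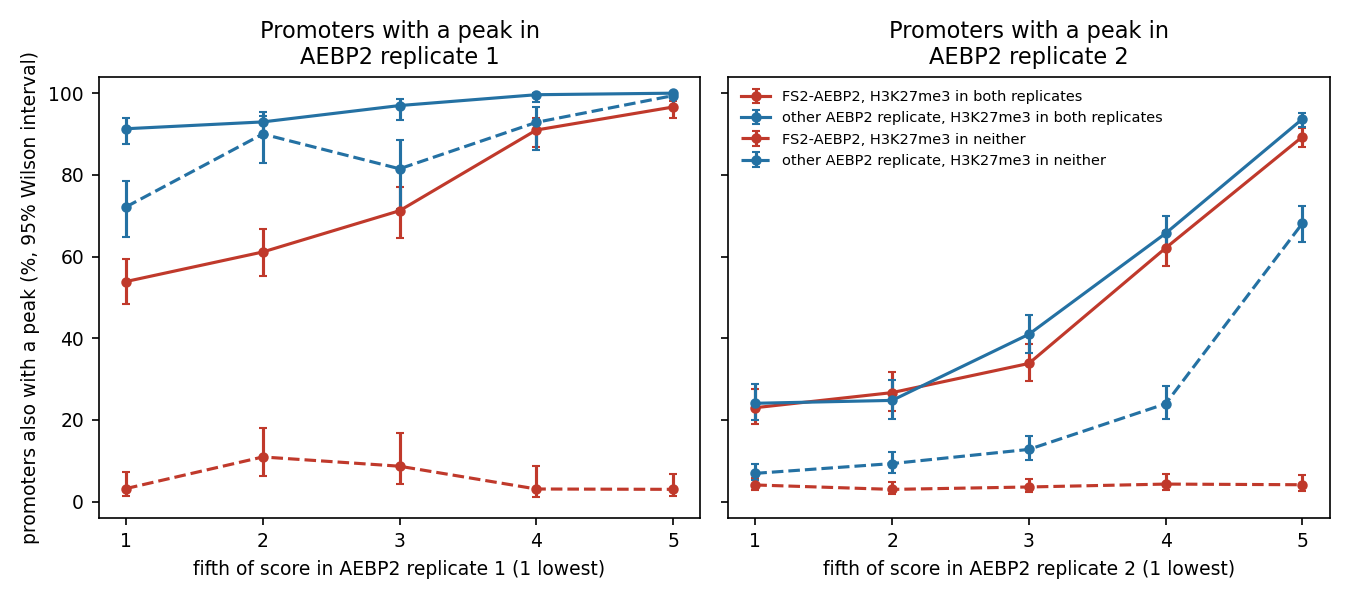
Share of promoters (vertical axis, with 95% Wilson intervals) in each of 5 bins of the AEBP2 score that also had a peak for FS2-AEBP2 or for the other AEBP2 replicate, with solid lines for H3K27me3 in both replicates and dashed lines for none. The dashed FS2-AEBP2 line lies between 2.98% and 10.9% for replicate 1, highest in the second bin from the left, while the solid one reaches 96.6%.

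The top of the tagged list lay at promoters with the mark. All of the 100 FS2-AEBP2 promoters with the highest scores had H3K27me3 in both replicates, and 99 of them had AEBP2 in both replicates. By contrast, 19 of the top 100 of replicate 1 and 18 of the top 100 of replicate 2 had the mark in both. Of the top 100, FS2-AEBP2 shared 14 with replicate 1 and 10 with replicate 2, while the AEBP2 replicates shared 66 with each other. The split was smaller in the top 500. There the mark lay in both replicates at 476 promoters of FS2-AEBP2, 325 of replicate 1 and 313 of replicate 2. FS2-AEBP2 then shared 250 with replicate 1 and 251 with replicate 2, and the AEBP2 replicates shared 348. Neighbouring promoters can share a peak and so its score. Scores are whole numbers of unstated scale and were only ranked within a list. The 8 promoters of all 3 lists with the highest FS2-AEBP2 score follow, each with its score for FS2-AEBP2, replicate 1 and replicate 2.

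Hoxd13 had scores of 130, 35 and 27. Uncx, a homeobox gene of the somites, had 126, 38 and 33, and Pax2, a paired-box gene of kidney and eye development, had 123, 24 and 59. Pcdh10 stood out among them as a gene for a cell adhesion protein and not a transcription factor, with 123, 11 and 52. Its replicate 1 score was higher than that of 72.5% of that list, against 98.4% for replicate 2. Six3, a homeobox gene of the forebrain, had 122, 38 and 42. Foxb2, a forkhead gene, had 113, 17 and 46, and Pax7, a gene of muscle progenitors, had 109, 23 and 46. Olig2, a bHLH gene of oligodendrocyte and motor neuron precursors, had 106, 16 and 57. Apart from Pcdh10 in replicate 1, the lowest standing was that of Olig2 in replicate 1, above 87.1% of the list, and each of the 8 had H3K27me3 in both replicates.

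Across the 1056 shared promoters the rank of the FS2-AEBP2 score went with that of the endogenous score. Spearman's rho was 0.59 with replicate 1 and 0.66 with replicate 2, and it was 0.62 between the AEBP2 replicates. This is a description over promoters, which are not replicates and can share a peak. Among the 28 of them without H3K27me3 the values were 0.09, 0.27 and 0.67, at an n too small to read an order from.

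Gene groups were counted by how many of their promoters had a peak, the groups having been compiled with earlier results of these data known. Over 19 groups of developmental regulators and signalling genes, FS2-AEBP2 reached 213 of 306 promoters, replicate 1 reached 199 and replicate 2 reached 236. All 3 lists held 192, only 5 had FS2-AEBP2 without AEBP2, and 6 had AEBP2 in both replicates without FS2-AEBP2. These shares stand against 6.53%, 9.08% and 22.3% of all promoters. With the 2877 highest-scoring peaks of each list FS2-AEBP2 reached 212 and replicate 1 reached 199, and replicate 2 reached fewer than FS2-AEBP2, so that their order turned.

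The transcription factor families showed how close the lists were. Among the Hox genes, which set position along the body axis, FS2-AEBP2 reached 39 of 40 promoters, replicate 1 reached 38 and replicate 2 reached all 40. Hoxd4 had a peak in replicate 2 only. All 6 Iroquois promoters were in all 3 lists, led by Irx3, with FS2-AEBP2, replicate 1 and replicate 2 scores of 93, 14 and 43. The LIM homeobox group had 11 of 12 promoters in FS2-AEBP2 and in replicate 1. Isl2, a motor neuron gene, was its exception: it had AEBP2 scores of 23 and 55 and H3K27me3 in both replicates but no FS2-AEBP2 peak. FS2-AEBP2 reached 8 of 9 Pax promoters, 9 of 9 Dlx and Msx promoters, 11 of 14 Nkx promoters, 11 of 16 T-box promoters and 4 of 6 Gata promoters. The larger Fox family had 21 of 43, with 20 in replicate 1 and 28 in replicate 2, and the members seen in replicate 2 alone included Foxk1, Foxn2 and Foxo3, without H3K27me3, and Foxi2, Foxj1 and Foxn4, with it in both replicates. Of the 19 Sox promoters FS2-AEBP2 reached 13, led by Sox14 and Sox9, and the pluripotency factor gene Sox2 had no peak in any of the 3 lists. Of 31 promoters of bHLH lineage genes FS2-AEBP2 reached 22, and Neurod1 was seen in replicate 1 alone.

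Signalling genes were reached to varied extents, most often the Wnt ligands, whose secreted proteins instruct neighbouring cells. FS2-AEBP2 had a peak at 16 of 19 Wnt ligand promoters, led by Wnt1, with scores of 73, 16 and 47 in FS2-AEBP2, replicate 1 and replicate 2. Wnt4 had AEBP2 peaks only, with 8 and 16, and Wnt16 an FS2-AEBP2 peak only, with a score of 7. Of the Frizzled receptors FS2-AEBP2 and replicate 1 each reached 5 of 10 and replicate 2 reached 9, or 3 with equal list sizes, and FS2-AEBP2 reached 5 of 9 secreted Wnt antagonists. The 3 Hedgehog ligand genes Dhh, Shh and Ihh were in all 3 lists, with FS2-AEBP2 scores of 90, 49 and 36. Smo and Gli2, the pathway's transducer and a transcription factor at its end, had FS2-AEBP2 peaks alone. Their scores of 11 and 3 lay above 57.5% and 4.13% of the FS2-AEBP2 list. FS2-AEBP2 reached 9 of 16 promoters of BMP ligands and antagonists and 7 of 22 of FGF ligands. In the FGF group the lead was Fgf9, with 52, 11 and 33, while Fgf8 had 11, 10 and 52.

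In the groups of active genes the lists held fewer promoters in common. These groups were named for the kind of gene, and the expression of their members was not measured here. Over 6 such groups FS2-AEBP2 reached 16 of 302 promoters, replicate 1 reached 41 and replicate 2 reached 95, or 50 with equal list sizes, with 3 promoters in all 3 lists. Its share there, 5.30%, was no higher than over all promoters. It reached none of the 25 promoters of snRNP proteins, which build the spliceosome, none of the 76 of mitochondrial ribosomal proteins, none of the 25 of homologous recombination and Fanconi genes, and 1 of the 80 of oxidative phosphorylation genes. AEBP2 peaks in both replicates were found at 6, 5, 3 and 12 of these promoters, against 8.44% of all promoters. In groups as small as 25, 0 for FS2-AEBP2 is near its share of all promoters, and so are 5 of 76 and 3 of 25 for AEBP2. The exception in oxidative phosphorylation was Ndufs7, a complex I subunit gene, with scores of 14, 9 and 16. Cytosolic ribosomal protein genes were different, since FS2-AEBP2 and replicate 1 each reached 11 of 80, but these 2 lists largely did not reach the same promoters. Replicate 2 reached 31, or 17 with equal list sizes. Only Rps19 had a peak in all 3 lists, with scores of 7, 6 and 10. FS2-AEBP2 was found with replicate 2 alone at Rps20, Rpl27a, Rpl35a, Rplp0 and Rps15a, and with replicate 1 alone at Rps29. FS2-AEBP2 alone was found at Rpl3, Rpl4, Rpl12 and Rpl28, with scores of 21, 9, 5 and 5, and AEBP2 in both replicates without FS2-AEBP2 at 8.

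FS2-AEBP2 reached more promoters of pluripotency genes than either replicate, 4 of 16 against 1 and 1, as it did in the Hedgehog pathway, with 6 of 10 against 4 and 5. Tbx3 was in all 3 lists. Klf2, Klf4 and Prdm14, transcription factors of the naive state, had FS2-AEBP2 peaks alone, with scores of 11, 6 and 8. H3K27me3 lay in both replicates at Prdm14, in 1 at Klf4 and in neither at Klf2. Of the genes of the Polycomb machinery, none of 11 PRC2 subunit promoters had an FS2-AEBP2 peak, which at 6.53% of all promoters is near the background. AEBP2 lay in both replicates at Jarid2 (13 and 32) and Rbbp7 (6 and 4), neither with H3K27me3. PRC1 had 4 of 17 promoters with FS2-AEBP2. The chromobox gene Cbx8 (58, 22 and 27) and the RING finger gene Bmi1 (42, 7 and 25) were in all 3 lists, and Cbx2, with AEBP2 scores of 5 and 6, was not in the FS2-AEBP2 list.

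**Figure D3:**
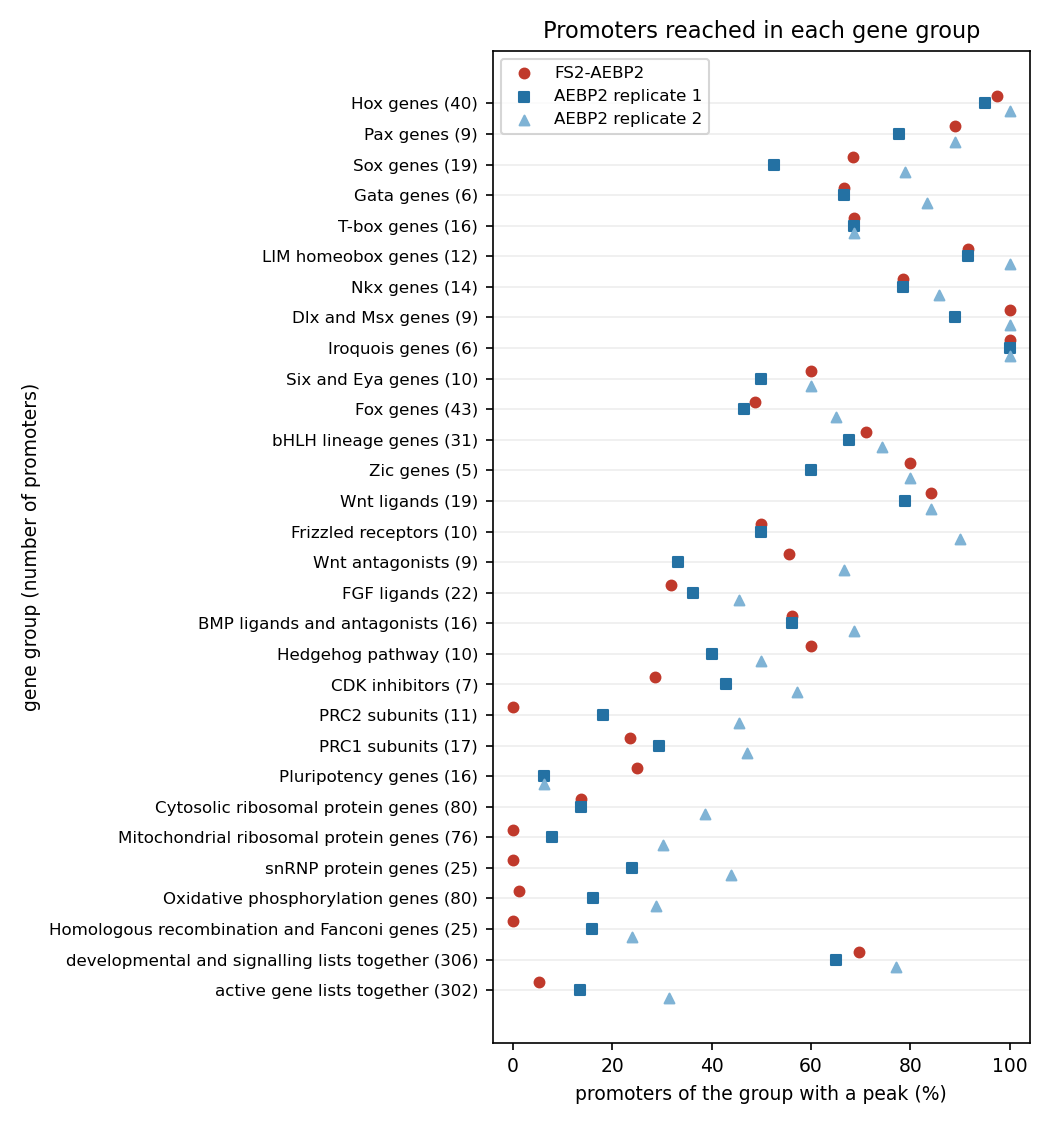
Percentage of the promoters of each gene group (rows, with the number of promoters in brackets) that had a peak for FS2-AEBP2 (circles), AEBP2 replicate 1 (squares) or AEBP2 replicate 2 (triangles). In most developmental groups FS2-AEBP2 and replicate 1 lie close together, as at 39 and 38 of 40 Hox promoters, while in the groups of active genes FS2-AEBP2 lies at or near 0 except for cytosolic ribosomal and pluripotency genes.

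The 832 promoters with both AEBP2 replicates and no FS2-AEBP2 had a median score above 38.4% of the replicate 1 list and 71.1% of the replicate 2 list, against 62.5% and 85.1% for the 1056 shared ones. Some of the highest scores of both lists were nevertheless among them, although the highest of replicate 1, at Exoc2, was in all 3 lists. The 8 with the best mean percentile, chosen for it, were led by Rpl22, with 127 in replicate 1 and 193 in replicate 2. Snrpb2, a gene of the U2 snRNP, had 137 and 142, and Palb2, which encodes the partner of BRCA2 in recombination, had 122 and 189. The other 5 served varied cellular functions. Snx18, for a sorting nexin, had 103 and 140, and Pomt1, for an O-mannosyltransferase, had 103 and 118. Vamp4, for a vesicle SNARE, had 89 and 171. Dph1, for diphthamide synthesis, had 99 and 112, and Cox19, for cytochrome oxidase assembly, had 90 and 131. Only Dph1 of the 8 had an H3K27me3 peak, in 1 replicate. Their peaks measured from 679 to 1493 bp in replicate 1 and from 744 to 1523 bp in replicate 2.

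Promoters of this class with and without the mark differed in score. The 509 without H3K27me3 had a median AEBP2 score of 8 in replicate 1 and 16 in replicate 2, and the 293 with H3K27me3 in both replicates had 5 and 9. Those with the mark had lower scores than the 1023 promoters of all 3 lists with the mark, at 9 and 19. Those without the mark also differed in sequence. Within 250 bases before and 50 after the start, on either strand, the NRF1 motif GCGCATGC lay in 19.1% of the 509, in 1.66% of the 1023 and in 3.30% of all promoters. The ETS motif CCGGAAGT lay in 8.45%, 0.293% and 4.69%, and the element CTCGCGAG in 5.50%, 0.880% and 1.18%. The YY1 motif AAGATGG lay in 7.66%, 2.64% and 6.73%. The GC box GGGCGG lay in 66.6%, 63.7% and 43.4%. The 293 promoters with the mark, also without FS2-AEBP2, lay near the 1023 and not near the 509 in the first 4 of these motifs. Among the 293 the NRF1 motif lay in 2.39%, the ETS motif in 1.37%, CTCGCGAG in 1.71%, the YY1 motif in 2.05% and the GC box in 69.3%. Of the 56 promoters with FS2-AEBP2 only and no mark, 5 (8.93%) held the ETS motif, 4 (7.14%) CTCGCGAG, 3 (5.36%) the YY1 motif and none the NRF1 motif. The first 2 of these shares lay near those of the 509, but the counts are too small for a comparison. These are matches of letters, not sites of binding.

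**Figure D4:**
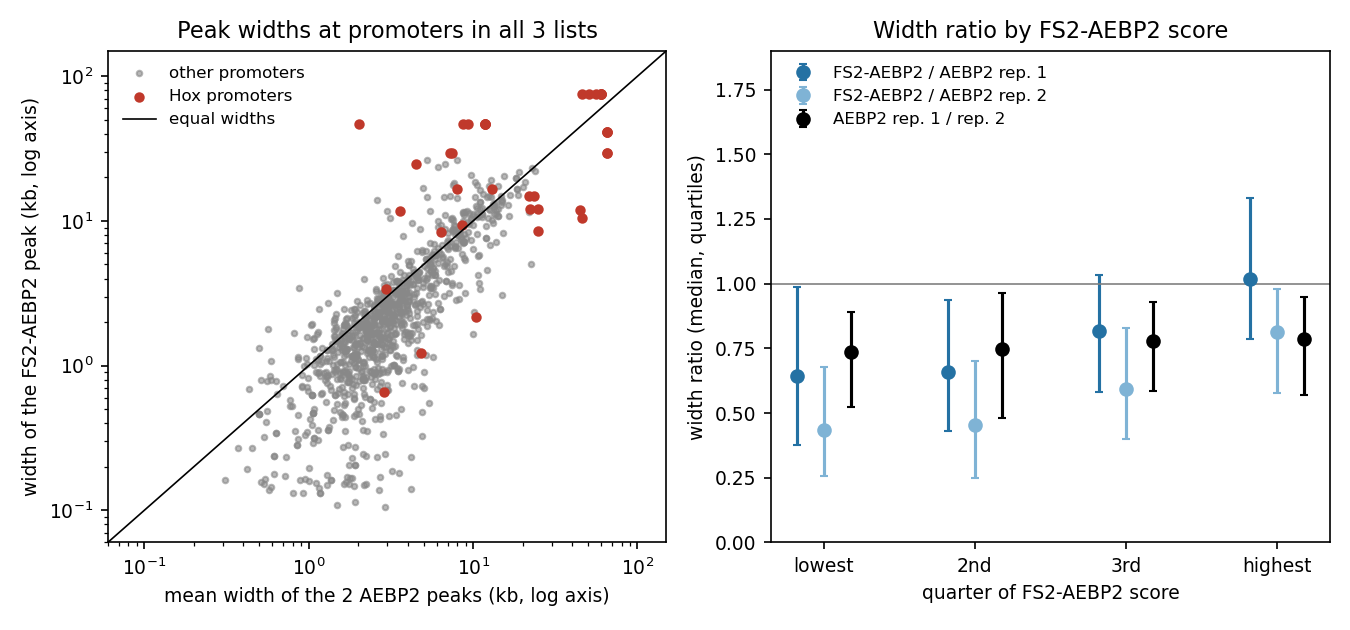
Left, width of the FS2-AEBP2 peak against the mean width of both AEBP2 peaks at 1056 promoters (kb, log axes), with Hox promoters in red and the line of equal widths. Right, median and quartiles of the width ratios in 4 bins of the FS2-AEBP2 score, where the ratio to replicate 1 goes from 0.643 in the lowest bin to 1.02 in the highest.

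At shared promoters the tagged peaks were narrower than the endogenous ones. The median width of the longest peak at the promoter was 1958 bp for FS2-AEBP2, 2418 bp for replicate 1 and 3321 bp for replicate 2. The median ratio of FS2-AEBP2 to the mean of the replicates was 0.740 (quartiles 0.472 and 0.981). It was 0.885 against replicate 1 and 0.635 against replicate 2, while replicate 1 to replicate 2 was 0.766. By these medians FS2-AEBP2 differed from replicate 1 by less than the replicates differed from each other. Promoter by promoter this did not hold as clearly. The ratio to replicate 1 had quartiles of 0.586 and 1.14, a wider spread than 0.549 and 0.938 between the replicates. FS2-AEBP2 had the narrowest of the 3 peaks at 635 promoters (60.1%) and the widest at 133 (12.6%). The ratio rose with the FS2-AEBP2 score, from a median of 0.512 in the lowest of 4 bins of the score percentile to 0.907 in the highest. FS2-AEBP2 was the narrowest at 75.3% of the promoters in the lowest bin and still at 44.6% in the highest. The bins are not independent of the ratio, because the FS2-AEBP2 width itself rose with the score. Its median went from 848.5 to 4419 bp, and that of replicate 1 from 1395.5 to 4230 bp. FS2-AEBP2 calls were also more often split, since within 5 kb of the start 29.2% of the promoters had several FS2-AEBP2 peaks, against 14.1% for replicate 1 and 14.9% for replicate 2. The gene start lay inside the FS2-AEBP2 peak at 58.0% of the shared promoters, inside the replicate 1 peak at 78.1% and inside the replicate 2 peak at 91.2%.

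Single promoters departed from this in both directions. Among those with the widest FS2-AEBP2 peak relative to AEBP2 were Tbx3, Hoxa3, Tcf21 and Lhx2, all genes of transcription factors, with ratios between 3.88 and 5.41. At Tbx3 the peaks measured 14011 bp for FS2-AEBP2, 3298 bp in replicate 1 and 1882 bp in replicate 2. At Lhx2, a gene of forebrain development, they measured 23661, 4831 and 7363 bp. At both genes a single FS2-AEBP2 peak was longer than the peaks of the AEBP2 replicates together. The 5 narrowest were Kcnh3, Med12l, Csmd2, Bcl11b and Cdc20b, with ratios between 0.0336 and 0.0563. Kcnh3, for a potassium channel, had 141 bp for FS2-AEBP2 against 3353 and 5052 bp. All of these named promoters had H3K27me3 in both replicates. At the 38 Hox promoters of all 3 lists, which 18 FS2-AEBP2 peaks covered, the median width was 29637 bp for FS2-AEBP2, 9880 bp in replicate 1 and 26521 bp in replicate 2, and the replicates differed there more than elsewhere, with a median ratio of 0.379.

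**Figure D5:**
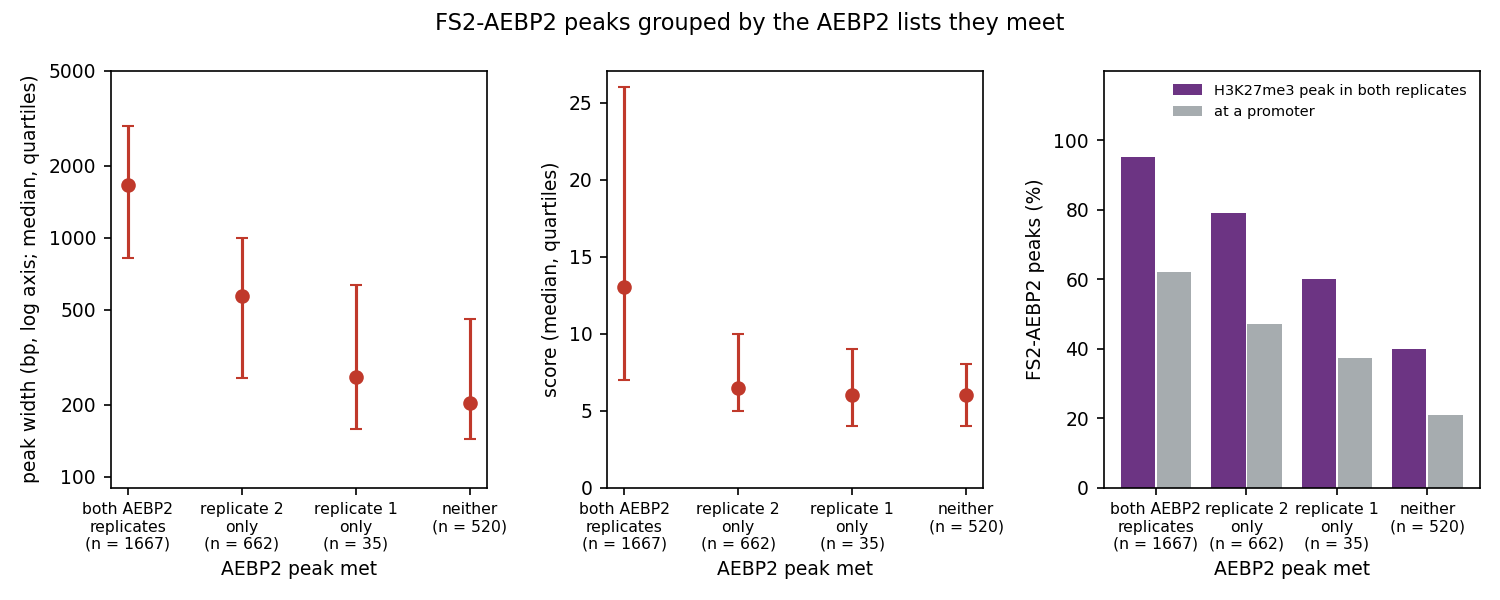
FS2-AEBP2 peaks grouped by the AEBP2 lists they met: width in bp on a log axis and score, both as median and quartiles, and the percentage with H3K27me3 in both replicates or at a promoter. Peaks that met both AEBP2 replicates were the longest, with quartiles of 818 and 2922 bp, and those that met neither the shortest, with 144 and 458 bp.

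Peak by peak, 1667 of the 2884 FS2-AEBP2 peaks met a peak of both AEBP2 replicates, or 57.8% (55.99 to 59.6). Replicate 2 alone was met by 662 (22.95%), replicate 1 alone by 35 (1.21%), and neither by 520, or 18.0% (16.7 to 19.5). Peaks that met neither were short and low, with quartiles of 144 and 458 bp and a median score of 6, against 818 and 2922 bp and 13 for those that met both. A long peak also meets other peaks more readily than a short one. H3K27me3 in both replicates was found at 208 of the 520 and at 95.1% of the 1667, and a promoter at 20.8% and 62.0%. Of the 520, 269 had no H3K27me3 peak, and 215 of these lay outside promoters.

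At promoters, FS2-AEBP2 without AEBP2 was found at 95 genes, 56 of them with no H3K27me3 and 34 with the mark in both replicates. The 8 highest scores were those of Zbtb37 (28), Rab11a (22), Rpl3 (21), 1110001J03Rik (18), Sspo (17), Sacm1l (16), Tbrg1 (14) and Fam129a (14). For comparison, the median FS2-AEBP2 score of the 1056 shared promoters was 15. Rab11a encodes a GTPase of recycling endosomes, and Rpl3 a protein of the large ribosomal subunit. Only Sspo, which encodes SCO-spondin, and Fam129a had H3K27me3, in both replicates, and the Sspo peak of 2554 bp met AEBP2 outside the promoter window. At Sacm1l, Tbrg1, Fam129a and 1110001J03Rik the peaks measured 141 to 189 bp.

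The highest-scoring FS2-AEBP2 peaks without AEBP2 lay away from promoters. Leading them was a peak of 225 bp with a score of 42 on chromosome 13, from 23538599 to 23538823, with no H3K27me3 and its nearest gene start, that of Btn1a1, 19059 bp away. Of the 10 highest, 5 lay between positions 21000000 and 24000000 of chromosome 13. That stretch held 64 FS2-AEBP2 peaks, or 2.22% of the list, against 13 (0.452%) of replicate 1 and 33 (0.487%) of replicate 2, and 32 of the 64 met neither replicate. It was singled out with these peaks known and its count includes them, so the difference between the lists is a description only. The 10 highest also included peaks of 11605 and 3617 bp on chromosome 2, with H3K27me3 in both replicates. Some short FS2-AEBP2 peaks without AEBP2 held the letters of an A box and a B box. These form the internal promoter of tRNA genes, which RNA polymerase III uses. They lay in 9 of the 32 peaks of the chromosome 13 stretch, but in none of the 5 among the 10 highest. The letters searched were TNGCNNAG and GTTCGANNC, 20 to 90 bases apart on the same strand, both strands being read, and they were chosen after the peaks had been seen. The pair lay in 14 of the 269 FS2-AEBP2 peaks without AEBP2 and H3K27me3, or 5.20% (3.13 to 8.55), which is 191 per Mb covered. It lay in 70 of all FS2-AEBP2 peaks (2.43%, 12.7 per Mb), in 48 of replicate 1 (1.67%, 8.43 per Mb) and in 76 of replicate 2 (1.12%, 6.91 per Mb). The rates per Mb depend on peak width, because a peak with the pair counts once whatever its length. Median widths were 167 bp for the 269 and 893 bp for all FS2-AEBP2 peaks. With TGGCNNAG as the A box the counts were 9, 35, 20 and 35. The AEBP2 lists, too, held such peaks, and of the 70 FS2-AEBP2 peaks 38 met both AEBP2 replicates and 16 met neither. In the chromosome 13 stretch the pair lay in 21 of the 64 FS2-AEBP2 peaks, 7 of the 13 of replicate 1 and 17 of the 33 of replicate 2. The methods state that yeast tRNA was used to block the beads of the FS2-AEBP2 ChIP, and its part in these peaks was not tested. The 2 highest-scoring of at most 300 bp are shown with the boxes in capitals, the first from the minus strand of chr10:12642365-12642550 (score 39) and the second from the plus strand of chr14:51683450-51683654 (score 29), both mm9 and read 5′ to 3′.
FS2-AEBP2 peak on chromosome 10: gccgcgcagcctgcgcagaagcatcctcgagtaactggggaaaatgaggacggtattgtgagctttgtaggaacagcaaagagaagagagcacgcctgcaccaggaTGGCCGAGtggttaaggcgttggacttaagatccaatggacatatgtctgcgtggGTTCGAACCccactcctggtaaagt
FS2-AEBP2 peak on chromosome 14: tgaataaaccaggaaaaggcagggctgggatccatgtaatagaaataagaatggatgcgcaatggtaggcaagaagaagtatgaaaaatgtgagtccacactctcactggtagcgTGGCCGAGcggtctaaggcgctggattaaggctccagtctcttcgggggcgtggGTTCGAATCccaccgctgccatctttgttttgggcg
The boxes stood 47 and 46 bases apart in these sequences.

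The Aebp2 gene itself (chromosome 6, positions 140570970 to 140626993, plus strand) held 1 peak in the 3 lists. It was an FS2-AEBP2 peak of 145 bp with a score of 6, at chr6:140582183-140582327, and 118 of its bases lay in exon 2 of the 8 exons of Aebp2-001. Neither AEBP2 replicate and neither H3K27me3 replicate had a peak on that exon, and no other exon was covered by FS2-AEBP2. The stretch is shown, because the plasmid carries Aebp2 sequence, with its exonic bases in capitals (mm9, plus strand).
Aebp2 peak of FS2-AEBP2: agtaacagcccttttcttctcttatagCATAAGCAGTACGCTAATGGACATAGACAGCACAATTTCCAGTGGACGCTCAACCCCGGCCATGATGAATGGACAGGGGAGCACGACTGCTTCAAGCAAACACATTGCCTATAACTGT
Whether reads of the plasmid took part in this peak was not tested.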

How the data were processed

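Peak lists of FS2-AEBP2 (1 sample), AEBP2 (2) and H3K27me3 (2) from wild-type mESCs were used, and samples were grouped by their labels. The submitters' processing notes name Bowtie, SAMtools, Picard, MACS2 2.0.10.2 and mm9. The authors called peaks in each sample separately and deposited for each peak a start, an end, inner blocks and a whole-number score of unstated scale, with no read counts, so the depth behind each list is unknown. A deeper or less strictly called library gives more and wider peaks, which limits every comparison of list lengths and widths. The antibody of the H3K27me3 lists is labelled anti-H3K27, and the mark is named in the methods. Other samples were not analysed here.

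Only chromosomes 1 to 19, X and Y were kept, leaving out 2 AEBP2 replicate 1 peaks. Overlap counted from 1 bp. A promoter spanned 1 kb before and after the 5′ end of each of 22367 GENCODE vM1 protein-coding genes, and a promoter's width and score were those of its longest and highest-scoring peak. Percentiles are shares of a list's peaks with a lower score. Intervals are 95% Wilson intervals. With 1 FS2-AEBP2 list no test over samples was made. Overlap counting was tested on simulated peaks. Genes were named by rule: the 8 highest FS2-AEBP2 scores in all 3 lists and in FS2-AEBP2 only, the 8 best mean AEBP2 percentiles without FS2-AEBP2, the 5 widest and 5 narrowest width ratios, the leading and exceptional members of each gene group, and Aebp2. Some genes that the rule names are not reported here. Members and gene groups were chosen with earlier results of these data known, and the chromosome 13 stretch and the A and B box letters after the peaks were seen. The scripts ran in Python 3.11.15 with pysam 0.24.0 for sequence, pandas 2.3.3 and numpy 2.4.6 for tables, scipy 1.17.1 for rank correlation and matplotlib 3.10.9 for plots. Alternatives are given in the closing section.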

Additional observations from a re-analysis of the deposited data

How the results depend on the processing

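With equal list sizes FS2-AEBP2 reached more developmental and signalling promoters (212) than replicate 2, the opposite of the order with all peaks (213 and 236). The shares by H3K27me3 and score bin and the top 100 and top 500 were not recomputed under other settings. The share of FS2-AEBP2 peaks that met both AEBP2 replicates, 57.8%, was 55.3% with peaks at or above the median score of their list, 49.1% with equal list sizes and 51.8% with at least 50% of the peak covered. It was 59.0% to 80.8% with 1 AEBP2 replicate left out. The share of FS2-AEBP2 promoters with both replicates, 72.3%, was 66.7% at or above the median score, 62.6% with equal sizes and 79.9% at promoters with H3K27me3 in both replicates, and 73.0% to 92.8% with 1 replicate left out. FS2-AEBP2 at promoters of both replicates, 55.9%, became 62.4% with equal sizes, 52.5% with promoters of 500 bp and 77.7% with H3K27me3 in both replicates, and 27.2% to 52.5% with 1 replicate left out. The lowest value was that without replicate 1, where the longer list stood alone. At or above the median score rho was 0.47 with replicate 1 and 0.56 with replicate 2. With equal sizes replicate 2 reached 50 and not 95 promoters of active genes, against 16 for FS2-AEBP2. The median width ratio stayed between 0.635 and 0.885. The alternatives limited to H3K27me3 promoters and those counting each FS2-AEBP2 peak once were added after the data were seen. No paired analysis was possible because FS2-AEBP2 has 1 list and no replicate number to pair with.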
